A study of Mus musculus with 8 samples.

Results

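The genes of glycolysis, the pyruvate dehydrogenase step and the TCA cycle were examined as a set of 40 genes that carry glucose carbon from the plasma membrane to the mitochondrial matrix. They were taken as the rows of the count table whose Ensembl identifier maps to 1 of 40 gene symbols, out of 32726 identifiers in the table. All 40 symbols were found, Pkm through a RefSeq synonym. All 40 passed the filter on low counts, which left 16272 genes for testing.

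Poly-A RNA was sequenced from cultured neurons in 8 libraries, 4 from mice with a constitutive Nuak1 knockout (KO1 to KO4) and 4 from wild-type mice (WT1 to WT4), numbered as in the labels. NUAK1 is a kinase of the AMPK family, and the question put to the gene set was whether its loss changes transcripts of central carbon metabolism. Libraries held 31247078 to 67155004 counts. Each condition used 4 animals. Because the knockout is constitutive, glia in a KO culture carry it too, and it is lethal at birth. Neurons came from mouse embryos, and every library of either genotype was collected after 5 days in vitro in serum-free medium, with no other agent given in the labels. The sex of the embryos was not analysed here. The study describes cortical cultures, whereas the tissue label of each library reads cortex or hippocampus. The labels also give a sequencing lane (lane A for KO1, KO4, WT1 and WT3, lane B for the others) and a strain code that they do not explain (BJ for KO1 to KO3, BK for KO4, WT2 and WT4, BO for WT1, BQ for WT3).

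Glycolysis splits glucose into pyruvate in the cytosol and yields ATP and NADH. Pyruvate is then either reduced to lactate, or imported into mitochondria, where the pyruvate dehydrogenase complex turns it into acetyl-CoA that the TCA cycle oxidises to feed the respiratory chain. Neurons depend strongly on glucose and on oxidation of pyruvate, take up glucose mainly through GLUT3, and exchange lactate with astrocytes.

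In these libraries Nuak1 itself averaged 2.37 CPM (counts per 1000000 counts of the library) in KO and 69.5 CPM in WT, with a log2 fold change of −4.895 (SE 0.13, edgeR quasi-likelihood test, Benjamini-Hochberg adjusted p 1.24e-07). All 8 neuronal markers listed were detected, and their summed level was 5878 to 6819 CPM in the KO libraries and 5866 to 6581 CPM in WT. Markers of astrocytes summed to 764 to 1444 CPM in the KO libraries and 728 to 1092 CPM in WT, with all 8 markers detected. Microglial markers summed to 15.4 to 58.0 CPM in the KO libraries and 21.0 to 33.9 CPM in WT. KO1 and WT1 stood apart from the other 6 libraries. They lay at −25.8 and −27.6 on the first principal component, which held 63.3% of the variance, whereas the others lay between 0.919 and 17.1. In bulk RNA, fewer cells of a type and less RNA per cell cannot be told apart.

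The authors counted only reads with a single best place in the genome, and many glycolytic genes have processed pseudogenes, intron-free copies of their mRNA. Each run of 50 consecutive coding bases of a member's longest transcript was therefore searched for an exact match elsewhere in the NCBIM37 mouse genome. No run matched elsewhere for 26 of the 40 genes. The other 14 comprised 10 genes of glycolysis and lactate exchange and 4 of the pyruvate dehydrogenase step and the TCA cycle. All coding runs (100%) of Gapdh, Pgk1 and Pgam1 had a copy, also when the runs were 100 bases long. The share was 83.4% for Eno1, 57.8% for Suclg2, 43.2% for Pkm, 43.0% for Pdhb, 35.8% for Ldhb, 32.4% for Gpi1 and 30.8% for Ldha. One run from a coding exon of Gapdh and of Pgam1 is shown to make the copies concrete, all in capitals because the whole run is found elsewhere. The Gapdh run (NCBIM37 chr6:125112916-125112965, minus strand) has 83 exact copies elsewhere and the Pgam1 run (chr19:41990098-41990147, plus strand) has 3.
Gapdh: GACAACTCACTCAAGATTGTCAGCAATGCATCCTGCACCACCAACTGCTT
Pgam1: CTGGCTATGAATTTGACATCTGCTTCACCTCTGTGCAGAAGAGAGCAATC

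The enolase genes show how 2 paralogues differ in this respect. The same coding stretch of Eno1 (chr4:149619224-149619273, plus strand) and Eno2 (chr6:124716296-124716345, minus strand), which encode the widely expressed and the neuronal enolase, differs at 6 of 50 bases, written in capitals. The Eno1 stretch has 5 exact copies elsewhere in the genome and the Eno2 stretch has 0.
Eno1: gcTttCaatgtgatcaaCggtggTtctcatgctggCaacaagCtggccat
Eno2: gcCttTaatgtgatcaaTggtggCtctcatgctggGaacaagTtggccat
Gapdh, in most tissues among the most abundant transcripts, was counted at 4.20 to 6.04 CPM in the KO libraries and 3.94 to 5.08 CPM in WT. The counts of Gapdh, Pgk1, Pgam1 and Eno1 therefore hold the reads that aligned uniquely and not the full transcript level, and these 4 genes were not ranked against others.

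Levels were compared between genes per length, as CPM per kb of annotated exon, averaged over the 8 libraries. For some genes the annotated exons together are much longer than the longest coding transcript, as for Gpi1 (4497 against 2037 bases) and Hk1 (8532 against 4278). The order of levels therefore also depends on the length used. The other 10 genes with copies, among them Suclg2, Pkm, Cs, Pdhb, Gpi1 and Ldha, stay in the order of levels with their uniquely aligned reads only, so their own places, and those of genes near them, depend on the reads not counted. Leaving out Gapdh, Pgk1, Pgam1 and Eno1, the highest level was that of Pfkp, the platelet-type phosphofructokinase, at 196 CPM per kb. It was followed by Cs (citrate synthase) at 112, Mdh1 (cytosolic malate dehydrogenase) at 86.4, Pkm (pyruvate kinase) at 76.8, Mdh2 (mitochondrial malate dehydrogenase) at 69.3 and Dld at 60.7 CPM per kb. Hexokinase 2 (Hk2) was lowest at 0.745 CPM per kb, below the GTP-specific succinyl-CoA ligase subunit Suclg2 at 1.59 and the glucose carrier Slc2a1 at 2.39. Together the 40 genes took 0.525% to 0.580% of all counts of a library, and Pfkp alone made up 33.4% of their sum, where the sum holds the uniquely aligned reads only of the genes with copies.

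**Figure D1:**
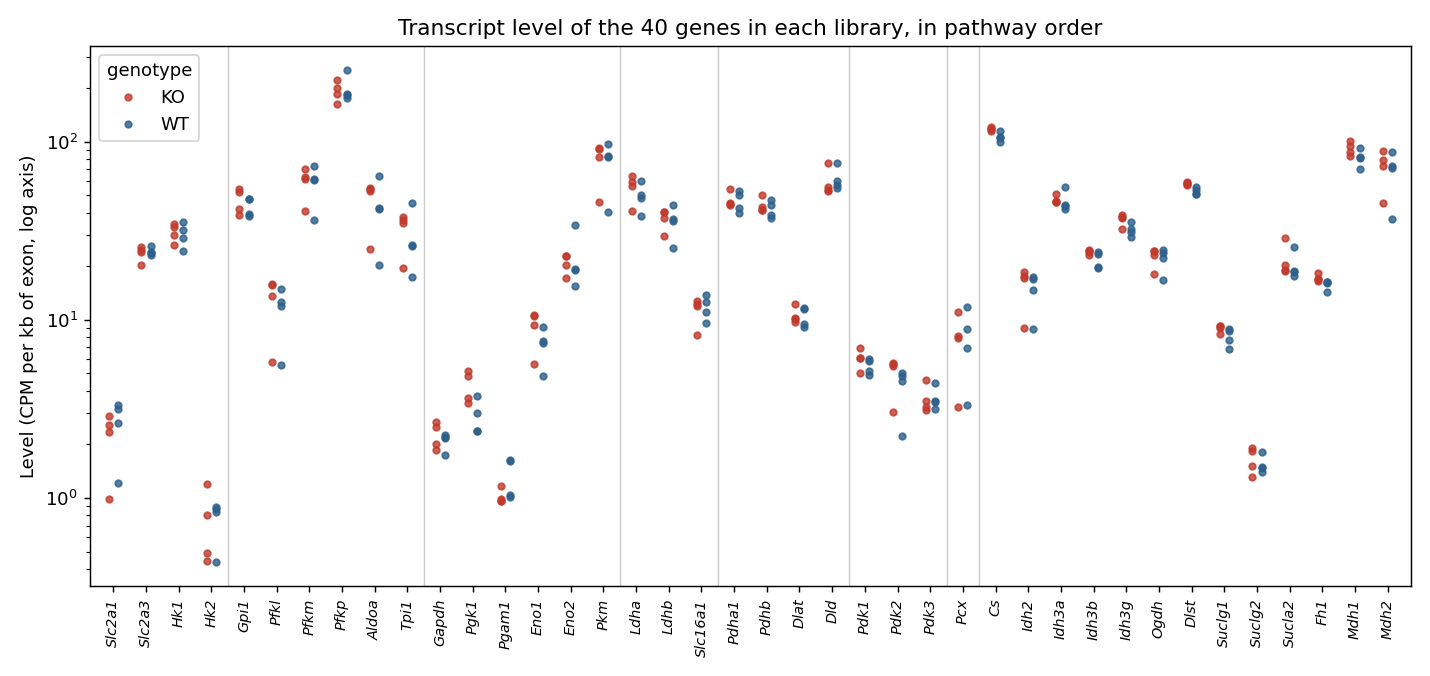
Level of each of the 40 genes in each library, in CPM per kb of exon on a log axis, with genes in pathway order, grey lines between steps, and 1 point per library (red, KO1 to KO4, blue, WT1 to WT4). Pfkp lies highest at a mean of 196 CPM per kb and Hk2 lowest at 0.745, and for nearly all genes the red and blue points overlap, the exceptions being Dlst and Fh1.

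Within the gene set, the libraries that differed most from the rest were again KO1 and WT1, and the difference followed the base composition of the transcripts. Pcx, the mitochondrial pyruvate carboxylase, is the member richest in G and C (57.7% of its transcript), and Dld is the poorest (40.6%). A coding stretch of each is printed with G and C in capitals, 58% of the bases in Pcx (NCBIM37 chr19:4601660-4601709, plus strand) and 40% in Dld (chr12:32034485-32034534, minus strand).
Pcx: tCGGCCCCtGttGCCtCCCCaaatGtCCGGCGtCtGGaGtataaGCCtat
Dld: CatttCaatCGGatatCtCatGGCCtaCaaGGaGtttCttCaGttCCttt
Pcx had 13.9, 34.8, 34.0 and 47.4 CPM in KO1 to KO4 and 14.2, 50.7, 37.8 and 29.8 CPM in WT1 to WT4. Dld had 169, 124, 120.1 and 119 CPM in KO and 170.3, 135, 122 and 129 CPM in WT. The log2 fold change of Pcx was −0.034 (SE 0.20), with 0.24 in lane A and −0.31 in lane B. KO1 and WT1 were the lowest libraries of their genotype for the GC-rich transcript and the highest for the GC-poor one.

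On the log2 CPM scale, Pcx lay 1.45 below the mean of KO2 to KO4 in KO1, and in WT1 the difference from WT2 to WT4 was −1.42. Over the 40 genes the Pearson correlation between transcript GC content and this difference was −0.835 for KO1 and −0.752 for WT1. Over the 13636 tested genes with a GC value it was −0.713 and −0.703, so that the set followed a pattern of the whole libraries. These correlations are across genes of single libraries, which share depth and preparation, and are given as a description. Of the 10 members richest in G and C (55.6% to 57.7%), 10 lay below 0 in KO1 and 8 in WT1, with medians of −0.90 and −0.97. Of the 10 poorest (40.6% to 47.2%), 9 lay above 0 in KO1 and 8 in WT1, with medians of 0.28 and 0.23. The differences in KO1 and WT1 correlated at 0.902 over the 40 genes, although some genes differed in sign, among them Hk2 (−0.79 in KO1 and 0.29 in WT1) and Gpi1 (−0.34 and 0.23). By the labels KO1 and WT1 were on lane A with KO4 and WT3, KO1 shares its strain code with KO2 and KO3, and WT1 is alone in its code. The part of lane or strain in the GC pattern was not tested. A surrogate variable that takes −0.558 in KO1 and −0.621 in WT1, against 0.048 to 0.39 in the others, was part of the model for genotype.

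**Figure D2:**
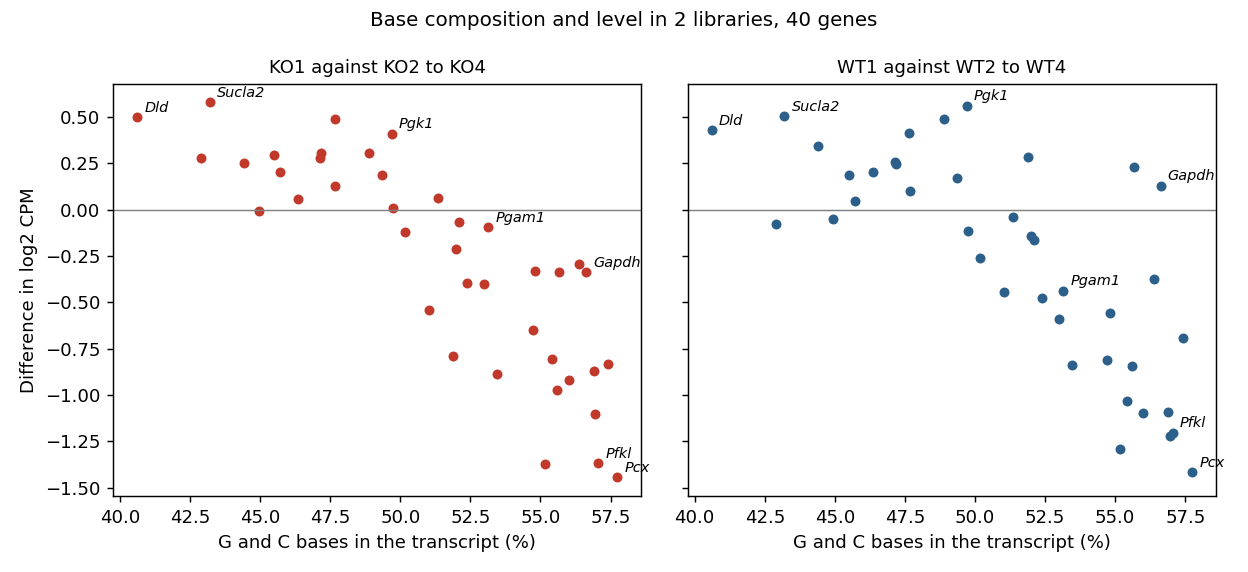
Difference in log2 CPM between KO1 and the mean of KO2 to KO4 (left) and between WT1 and the mean of WT2 to WT4 (right), against the G and C content of the transcript in percent, 1 point per gene. Points fall from above 0 at the GC-poor end, with 0.58 for Sucla2 in KO1, to −1.45 (KO1) and −1.42 (WT1) for Pcx, and Gapdh and Pgk1 are labelled as genes with copies.

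Between the genotypes, none of the 40 genes changed at the adjusted threshold of 0.05 (0 of 40, lowest adjusted p 0.239, edgeR quasi-likelihood test with Benjamini-Hochberg adjustment over the 16272 genes, of which 8, or 0.0492%, passed). An unadjusted p under 0.05 was seen for 7 of 40, or 17.5%, against 10.6% of all tested genes. All 7 were higher in KO, a class that held 4.87% of tested genes, against 5.75% lower in KO. They were Pgk1, Eno1, Pdk2, Idh3g, Aldoa, Pfkl and Suclg1. The log2 fold change was above 0 for 27 genes and below 0 for 13, against 53.8% above 0 among all tested genes. The median was 0.051 for the set and 0.015 for all tested genes, and the set ranged from −0.40 (Pgam1) to 0.52 (Pgk1). With limma-voom 0 of 40 passed the adjusted threshold and 6 had an unadjusted p under 0.05, beside 10.6% of all tested genes. DESeq2 with the same surrogate variable gave 1 (Pgk1) and 5. In that fit 168 of all tested genes passed the adjusted threshold and 9.6% had an unadjusted p under 0.05. The CPM ranges of the genotypes did not overlap for 2 of the 40 genes, Dlst and Fh1, both higher in KO, a pattern that 1.54% of tested genes showed in that direction and 2.4% in either.

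The number of genes at an unadjusted p under 0.05 depended on single libraries and on the surrogate variable. It was 2 without KO2, where 6.36% of all tested genes were at that level, and 4 without KO3, KO4 or WT2, where 6.97%, 9.72% and 9.05% were. Without WT3 it was 11, beside 15.6% of all tested genes. Genes at that level and lower in KO appeared in some of these settings, Slc2a1 without WT3, Pgam1 without KO1 or WT4, and Slc16a1 without KO1 and WT1 (log2 fold change −0.38). Without KO1 and WT1 together it was 4 (5.66% of tested genes), and with no surrogate variable it was 1 (2.52%). With the strain code as a term it was also 1 (1.91%), Slc16a1, which was lower in KO. Code BJ holds KO libraries only, and BO and BQ hold 1 WT library each. The fit with this term therefore compares genotypes within BK only, KO4 against WT2 and WT4. Over all genes, the number past the adjusted threshold was 4 without KO1 or KO2, 3 without KO3, WT1 or WT2, and 91 without WT3. Lane values, here and for single genes, come from fits of 2 against 2 libraries without the surrogate variable, and lane A holds both KO1 and WT1. In lane A 1 of the 40 had an unadjusted p under 0.05 (Hk2, lower in KO), beside 0.591% of all tested genes. In lane B 7 did, all higher in KO, beside 11.2%. The median log2 fold change of the set was −0.0029 in lane A and 0.073 in lane B. The number of log2 fold changes above 0 ran from 19 (lane A) to 32 (without KO1 and WT1) of 40, and it was 21 with an offset for the GC content of each gene in place of the surrogate variable. The median standard error was 0.081 over the set and 0.11 over all tested genes.

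**Figure D3:**
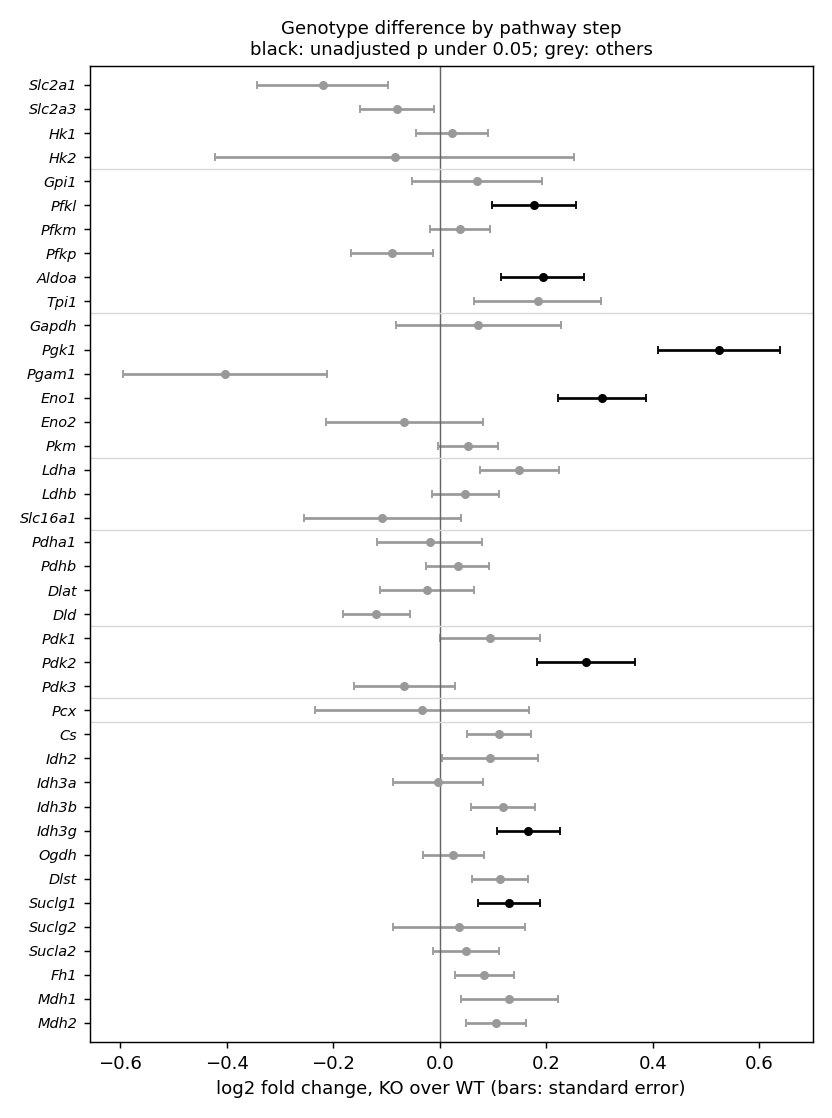
Log2 fold change of each gene, KO over WT, with bars of 1 standard error from the edgeR fit, in pathway order with lines between steps. The 7 genes with an unadjusted p under 0.05 are black and all lie above 0, from Suclg1 at 0.13 to Pgk1 at 0.52, and no gene passed the adjusted threshold.

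At the entry of glucose, no gene had an unadjusted p under 0.05 in edgeR, limma-voom or DESeq2 (0 of 4). In other settings of the edgeR fit 1 gene was at that level and lower in KO, given here with the share of all tested genes. It was Slc2a1 without WT3 (15.6%), with 2 surrogate variables (12.1%) or with the replicate number as a block (7.17%), and Hk2 in lane A alone (0.591%). Slc2a3 encodes GLUT3, the main glucose carrier of neurons, and had 187, 174, 179 and 147 CPM in KO1 to KO4 and 189, 174, 173 and 167 CPM in WT1 to WT4. Its log2 fold change was −0.081 (SE 0.069, edgeR adjusted p 0.702), a difference of −5.45% with 2 standard errors spanning −14.1% to 4.04%. Slc2a1 encodes GLUT1, the carrier of astrocytes and the blood-brain barrier. It had 2.82, 6.71, 8.21 and 7.34 CPM in KO and 3.46, 7.49, 9.48 and 9.003 CPM in WT, lowest in KO1 and WT1, with a log2 fold change of −0.22 (SE 0.12, edgeR adjusted p 0.545). The genotypes overlapped for both carriers.

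Hexokinases trap glucose as glucose 6-phosphate. Hk1, the main brain form, had 224, 256, 282 and 294 CPM in KO and 207, 271, 302 and 246 CPM in WT. For Hk1 the log2 fold change was 0.023 (SE 0.068, edgeR adjusted p 0.930). Hk2, an inducible form, had 2.64, 7.11, 4.78 and 2.92 CPM in KO and 4.99, 2.62, 5.202 and 5.29 CPM in WT. The fold change of Hk2 was −0.085 on the log2 scale (SE 0.34, edgeR adjusted p 0.949), with the largest standard error of the set, and was −0.89 in lane A alone, 0.55 in lane B alone and −0.012 without KO1 and WT1. In lane B alone Hk1 was at −0.013. Neither hexokinase separated the genotypes.

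Upper glycolysis, from glucose 6-phosphate to the triose phosphates, held 2 of 6 genes with an unadjusted p under 0.05, Aldoa and Pfkl, against 10.6% of all tested genes, and 5 of 6 log2 fold changes above 0, against 53.8%. The count of 2 fell to 1 without KO1 or KO4, and to 0 without KO2, KO3, WT2 or WT4, in fits where 6.36% to 13.3% of all tested genes were at that level. Aldoa (aldolase A, ENSMUSG00000030695, GRCm38 chromosome 7, 126795234 to 126800994) had 68.4, 149, 150.9 and 146 CPM in KO1 to KO4 and 56.3, 115, 176 and 117 CPM in WT1 to WT4. KO1 and WT1 were far below the others and WT3 was the highest of all 8, so that the genotypes overlapped. Its log2 fold change was 0.19 (SE 0.078, p 0.034, edgeR adjusted p 0.438). It was −0.11 in lane A alone and 0.30 in lane B alone.

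Phosphofructokinase commits glucose carbon to glycolysis and is built from 3 kinds of subunit. Pfkl, the liver type (ENSMUSG00000020277, GRCm38 chromosome 10, 77986947 to 78009807), had 25.4, 59.9, 70.3 and 69.3 CPM in KO and 24.6, 55.3, 65.7 and 52.7 CPM in WT, again lowest in KO1 and WT1. Pfkl had a log2 fold change of 0.18 (SE 0.078, p 0.049, edgeR adjusted p 0.468), with 0.068 in lane A and 0.20 in lane B. Pfkm, the muscle type, had 125, 189, 194 and 216 CPM in KO and 111, 187, 224 and 186 CPM in WT. Overlap was complete for Pfkm, with a log2 fold change of 0.037 (SE 0.056, edgeR adjusted p 0.842) that was −0.032 in lane B alone. Pfkp, by count the dominant subunit, had 2096, 1893, 1735 and 1535 CPM in KO and 2361, 1747, 1654 and 1727 CPM in WT. Pfkp had a log2 fold change of −0.090 (SE 0.078, edgeR adjusted p 0.705), a difference of −6.04% with 2 standard errors spanning −15.6% to 4.65%. In contrast to the other subunits it was highest in KO1 and WT1. Glucose phosphate isomerase (Gpi1) and triosephosphate isomerase (Tpi1) ranged over 173 to 243 and 43.0 to 83.2 CPM in the KO libraries and 173 to 216 and 38.3 to 100.3 CPM in WT. Their log2 fold changes were 0.069 and 0.18. In the lane fits, which hold no surrogate variable, they differed in sign, at −0.27 and −0.21 in lane A and at 0.38 and 0.43 in lane B (edgeR p 0.000545 and 0.000402, adjusted p 0.065 and 0.057). Without WT3 the log2 fold change of Tpi1 was 0.32 (edgeR p 0.0025, adjusted p 0.102).

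Lower glycolysis, where ATP is made, held the extremes of the set. An unadjusted p under 0.05 was seen for 2 of 6 genes, Pgk1 and Eno1, against 10.6% of all tested genes. Of the 6 log2 fold changes 4 were above 0, a share near the 53.8% of all tested genes. Pgk1 (phosphoglycerate kinase 1, ENSMUSG00000062070, GRCm38 chromosome X, 106187100 to 106203699), which makes ATP from 1,3-bisphosphoglycerate, had 11.6, 10.8, 7.67 and 8.16 CPM in KO1 to KO4 and 8.35, 5.32, 5.31 and 6.77 CPM in WT1 to WT4. WT1, at the top of its genotype, lay within the KO range, and the other 3 WT libraries lay below every KO library. Means were 9.56 ± 1.93 CPM over the 4 KO libraries and 6.44 ± 1.45 CPM over the 4 WT libraries (±SD). The log2 fold change was 0.52 (SE 0.11, p 0.001, edgeR adjusted p 0.239), and it was 0.50 in lane A, 0.55 in lane B and 0.50 without KO1 and WT1. Over the 22 alternatives it ran from 0.43 to 0.59, and the adjusted p ran from 0.016 (DESeq2, the only one under 0.05) to 1. These values rest on the reads of Pgk1 that aligned uniquely, since every coding run of the gene has a copy elsewhere.

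Pgam1 (phosphoglycerate mutase 1), in the same position with its 6 copied places, had 1.75, 1.76, 1.80 and 2.13 CPM in KO and 1.86, 2.99, 2.96 and 1.90 CPM in WT. WT2 and WT3 were high and the other WT libraries lay among the KO values. Pgam1 had a log2 fold change of −0.40 (SE 0.19, p 0.062, edgeR adjusted p 0.496), and it ran from −0.55 to −0.24 over the alternatives. Eno1 (ENSMUSG00000063524, GRCm38 chromosome 4, 150236708 to 150248879) had 30.2, 57.1, 56.2 and 50.3 CPM in KO and 26.1, 39.7, 49.1 and 40.9 CPM in WT. KO2 to KO4 lay above every WT library, and KO1 lay between WT1 and WT2. Eno1 had a log2 fold change of 0.30 (SE 0.083, p 0.0045, edgeR adjusted p 0.318), with 0.089 in lane A and 0.43 in lane B. Eno2, which has no coding copy, had 81.1, 107, 107 and 95.3 CPM in KO and 73.1, 91.0, 161 and 89.98 CPM in WT, with WT3 far above the other 7. For Eno2 it was −0.067 (SE 0.15, edgeR adjusted p 0.898), but 0.12 without WT3. Gapdh, which makes NADH, and Pkm, whose spliced forms PKM1 and PKM2 are not separated by these counts, complete the step. Pkm ranged over 110.2 to 219.6 CPM in the KO libraries and 96.2 to 233 CPM in WT.

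For the exchange of pyruvate with lactate, 0 of 3 genes had an unadjusted p under 0.05 in edgeR. Without WT3 (15.6% of all tested genes at that level) or in lane B alone (11.2%) there was 1, higher in KO. Without KO1 and WT1 (5.66%), with the strain code as a term (1.91%) or with 2 surrogate variables (12.1%) there was 1, Slc16a1, lower in KO. Ldha, the lactate dehydrogenase subunit typical of glycolytic tissue, had 122, 192, 176 and 169 CPM in KO1 to KO4 and 113, 144, 180.2 and 149.6 CPM in WT1 to WT4. Ldhb, the subunit typical of oxidative tissue, had 46.4, 63.3, 59.0 and 63.4 CPM in KO and 39.9, 56.7, 69.4 and 58.1 CPM in WT. Both were lowest in KO1 and WT1, and the genotypes overlapped. The log2 fold changes were 0.15 for Ldha (SE 0.075, p 0.074, edgeR adjusted p 0.511) and 0.048 for Ldhb (SE 0.063, edgeR adjusted p 0.821). In lane A alone they were −0.028 and −0.0036, and in lane B alone Ldha was at 0.26 (edgeR p 0.0076). Slc16a1, the lactate and pyruvate carrier MCT1, ranged over 36.3 to 56.6 CPM in the KO libraries and 42.6 to 61.3 CPM in WT. Its log2 fold change was −0.11 (SE 0.15, edgeR adjusted p 0.826), and it ran from −0.70 to 0.010 over the alternatives.

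The 4 genes of the pyruvate dehydrogenase complex, the E1 subunits Pdha1 and Pdhb, the E2 core Dlat and the shared E3 enzyme Dld, had 0 of 4 unadjusted p under 0.05 in edgeR, and 1 of 4 log2 fold changes lay above 0, against 2 without KO2 and 3 without WT3. Pdha1, Pdhb and Dlat ranged over 167 to 205, 61.5 to 75.0 and 47.5 to 60.0 CPM in the KO libraries and 151 to 199.5, 55.5 to 69.8 and 44.3 to 56.9 CPM in WT. The summed level of the 4 genes of the complex, Dld included, was 509.6, 402, 405 and 397 CPM in KO1 to KO4 and 486, 395, 436 and 391 CPM in WT1 to WT4. KO1 and WT1 were the highest of their genotype, the reverse of most glycolytic genes. The complex is switched off by kinases that phosphorylate E1. Of these, Pdk2 (ENSMUSG00000038967, GRCm38 chromosome 11, 95026258 to 95041371) had 9.63, 17.9, 18.0 and 17.4 CPM in KO and 7.01, 14.3, 16.01 and 15.4 CPM in WT. KO2 to KO4 lay above every WT library, and KO1 and WT1 were the lowest. Its log2 fold change was 0.27 (SE 0.092, p 0.014, edgeR adjusted p 0.369), with 0.23 in lane A and 0.21 in lane B. Pdk1, a kinase induced in hypoxia, had 47.6, 53.9, 47.2 and 38.9 CPM in KO and 46.7, 37.99, 45.7 and 40.3 CPM in WT, with a log2 fold change of 0.094 (SE 0.094, edgeR adjusted p 0.751) with −0.12 in lane A alone and 0.30 in lane B alone. Pdk3 ranged over 8.02 to 11.7 CPM in the KO libraries and 8.04 to 11.3 CPM in WT.

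The 13 genes of the TCA cycle showed small differences that mostly lay on the same side. The log2 fold change was above 0 for 12 of 13, against 53.8% of all tested genes, with a median of 0.10 against 0.015. It was above 0 for 11 to 13 of the 13 in each of the 22 alternatives, 11 in lane A, 11 in lane B and 13 without KO1 and WT1. The 13 genes were read from the same 8 libraries, so their signs are not independent observations. None passed the adjusted threshold in edgeR, limma-voom or DESeq2, and 2 of 13 (Idh3g and Suclg1), or 15.4%, had an unadjusted p under 0.05, against 10.6% of all tested genes. That count was 4 without WT3, where 15.6% of all tested genes were at that level, and 1 without KO1, KO3, WT1 or WT2 (5.45% to 9.05%). It was 0 without KO2, without KO4, without KO1 and WT1 together or with no surrogate variable (2.52% to 9.72%). The exception in sign, named after its value was seen, was Idh3a at −0.0040. The summed level of the 13 genes was 1478, 1537, 1525 and 1600.0 CPM in KO1 to KO4 and 1277, 1350.1, 1550.0 and 1458 CPM in WT1 to WT4. The KO libraries spanned 1478 to 1600 CPM, and WT3 lay inside that span while the other 3 WT libraries lay below it. A further 18 genes that work with the cycle, among them the succinate dehydrogenase subunits, aconitases, malic enzymes and transaminases, had 10 of 18 log2 fold changes above 0 and a median of 0.018, with 0 at an unadjusted p under 0.05 (edgeR).

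**Figure D4:**
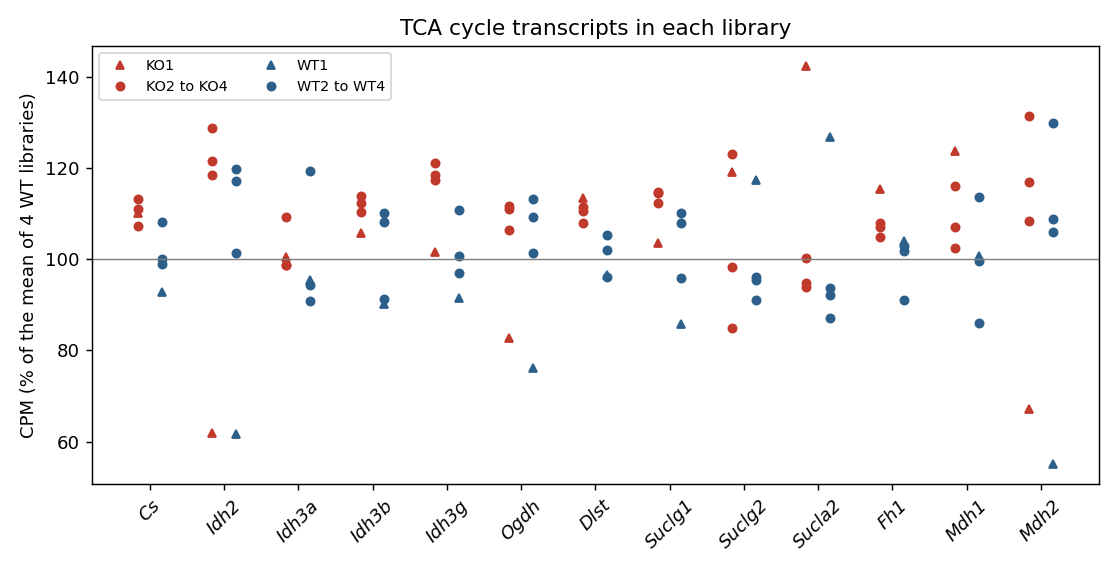
CPM of each of the 13 TCA cycle genes in each library, as a percentage of the mean of the 4 WT libraries, with KO in red, WT in blue, and triangles for KO1 and WT1. The red points lie above the blue ones without overlap for Dlst and Fh1, and the triangles fall far from the circles for the GC-rich Idh2 and Mdh2 (below) and the GC-poor Sucla2 (above).

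Idh3g (ENSMUSG00000002010, GRCm38 chromosome X, 73778963 to 73786897) is the gamma subunit of the NAD-dependent isocitrate dehydrogenase. It had 87.8, 102, 101 and 105 CPM in KO1 to KO4 and 78.9, 83.6, 87.0 and 95.6 CPM in WT1 to WT4. KO1 lay within the WT range and the other KO libraries above it. Idh3g had a log2 fold change of 0.17 (SE 0.059, p 0.019, edgeR adjusted p 0.393), with 0.19 in lane A and 0.12 in lane B. Its partner subunits Idh3a and Idh3b ranged over 116 to 128 and 78.8 to 84.7 CPM in the KO libraries and 107 to 140.0 and 67.2 to 81.9 CPM in WT.

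Dlst (ENSMUSG00000004789, GRCm38 chromosome 12, 85110822 to 85134091), the E2 core of the 2-oxoglutarate dehydrogenase complex, had 166, 163, 162 and 158 CPM in KO and 141, 141, 149 and 154 CPM in WT. Every KO library lay above every WT library. Means were 162 ± 3.34 CPM over the 4 KO libraries and 146 ± 6.44 CPM over the 4 WT libraries (±SD). The log2 fold change was 0.11 (SE 0.052, p 0.057, edgeR adjusted p 0.486), a difference of 8.15% with 2 standard errors spanning 0.582% to 16.3%. Ogdh, the E1 enzyme of the same complex, ranged over 98.5 to 133 CPM in the KO libraries and 90.9 to 135 CPM in WT, lowest in KO1 and WT1.

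The succinyl-CoA ligase makes GTP or ATP in the cycle, with Suclg1 as the common subunit. Suclg1 (ENSMUSG00000052738, GRCm38 chromosome 6, 73248505 to 73276907) had 38.4, 42.5, 42.5 and 41.6 CPM in KO and 31.8, 35.6, 40.9 and 40.04 CPM in WT. KO1 lay inside the WT range, and the other KO libraries lay at 41.6 to 42.5 CPM against at most 40.9 in WT. Suclg1 had a log2 fold change of 0.13 (SE 0.058, p 0.049, edgeR adjusted p 0.468). Sucla2, the ATP-specific partner, had 114, 80.6, 75.5 and 76.1 CPM in KO and 102, 75.3, 70.02 and 74.1 CPM in WT, highest in KO1 and WT1. Suclg2, the GTP-specific partner, had 6.24, 6.45, 5.14 and 4.45 CPM in KO and 6.14, 5.03, 4.99 and 4.76 CPM in WT. The log2 fold changes were 0.049 for Sucla2 (SE 0.062, edgeR adjusted p 0.813) and 0.036 for Suclg2 (SE 0.12, edgeR adjusted p 0.937), and the genotypes overlapped for both.

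Fh1 (fumarase, ENSMUSG00000026526, GRCm38 chromosome 1, 175601378 to 175625635) had 61.8, 57.8, 57.4 and 56.1 CPM in KO and 55.7, 48.8, 55.1 and 54.5 CPM in WT. The genotypes did not overlap, by a margin of 56.1 against 55.7 CPM, and the log2 fold change was 0.083 (SE 0.056, p 0.167, edgeR adjusted p 0.612). Citrate synthase (Cs) ranged over 324 to 342 CPM in the KO libraries and 280.2 to 327 CPM in WT. The malate dehydrogenases Mdh1 and Mdh2 ranged over 214 to 258 and 94.4 to 185 CPM in the KO libraries and 179.8 to 237 and 77.4 to 183 CPM in WT, and the NADP-dependent Idh2 over 23.2 to 48.3 and 23.1 to 44.9 CPM. Mdh2 and Idh2 were lowest in KO1 and WT1.

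For 8 pairs of isoforms or paralogous subunits that share a step, the log2 ratio of their counts within each library, which needs no scaling between libraries, was compared between genotypes by a two-sided exact permutation test. The smallest exact p was 0.143, and all adjusted p were 0.686 or above over the 8 pairs. With 4 against 4 libraries the exact p can reach 0.0286, and 1 pair alone at that value would not pass 0.05 after adjustment over 8 pairs, so a difference in a single pair could not have been called. The ratio of Eno1 to Eno2 was −1.42, −0.91, −0.93 and −0.92 in KO1 to KO4 and −1.48, −1.20, −1.71 and −1.14 in WT1 to WT4. KO2 to KO4 lay above every WT library, while KO1 lay within the WT range. The difference was 0.34 (SE 0.18, exact permutation p 0.143, adjusted 0.686), and it ran from 0.23 to 0.46 when single libraries were left out.

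The ratio of Ldha to Ldhb was 1.39, 1.60, 1.58 and 1.41 in KO and 1.51, 1.34, 1.38 and 1.36 in WT, with a difference of 0.099 (SE 0.067, exact permutation p 0.171, adjusted 0.686). Per length, Ldha made up 57.2% to 61.5% of the pair in the 8 libraries, with nearly the same share in every library. Sucla2 made up 91.4% to 94.0% of the pair with Suclg2, so that the ATP-specific subunit was in the large majority in both genotypes, although 57.8% of the coding runs of Suclg2 have a copy. The difference in ratio was 0.023 (SE 0.13, exact permutation p 0.886). Hk2 made up 1.36% to 3.82% of Hk1 and Hk2, and Slc2a1 3.69% to 12.2% of Slc2a1 and Slc2a3. The differences between genotypes were −0.16 (SE 0.44, exact permutation p 0.743) and −0.20 (SE 0.55, exact permutation p 0.514), each smaller than its standard error, and the second was 0.19 without KO1.

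In the remaining pairs KO1 and WT1 lay at one end of the values. Pfkp to Pfkm was 4.06, 3.33, 3.16 and 2.83 in KO and 4.41, 3.22, 2.88 and 3.22 in WT, highest in KO1 and WT1, and Pfkp made up 69.8% to 87.4% of the pair per length. Pfkl to Pfkm was −2.30, −1.66, −1.46 and −1.64 in KO and −2.17, −1.76, −1.77 and −1.82 in WT, lowest in the same libraries. Pdk1 to Pdk2 was 2.31, 1.59, 1.39 and 1.16 in KO and 2.74, 1.41, 1.51 and 1.39 in WT, highest in KO1 and WT1. In each of these pairs the gene that KO1 and WT1 held less of is the one richer in G and C, at 54.7% for Pfkm against 48.9% for Pfkp, 57.1% for Pfkl, and 56.9% for Pdk2 against 46.4% for Pdk1. The genotype differences were −0.087, 0.12 and −0.15 (SE 0.42, 0.21 and 0.41, exact permutation p 0.8286, 0.571 and 0.629). Leaving out WT1 alone turned the difference to 0.24 for Pfkp to Pfkm and 0.17 for Pdk1 to Pdk2.

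**Figure D5:**
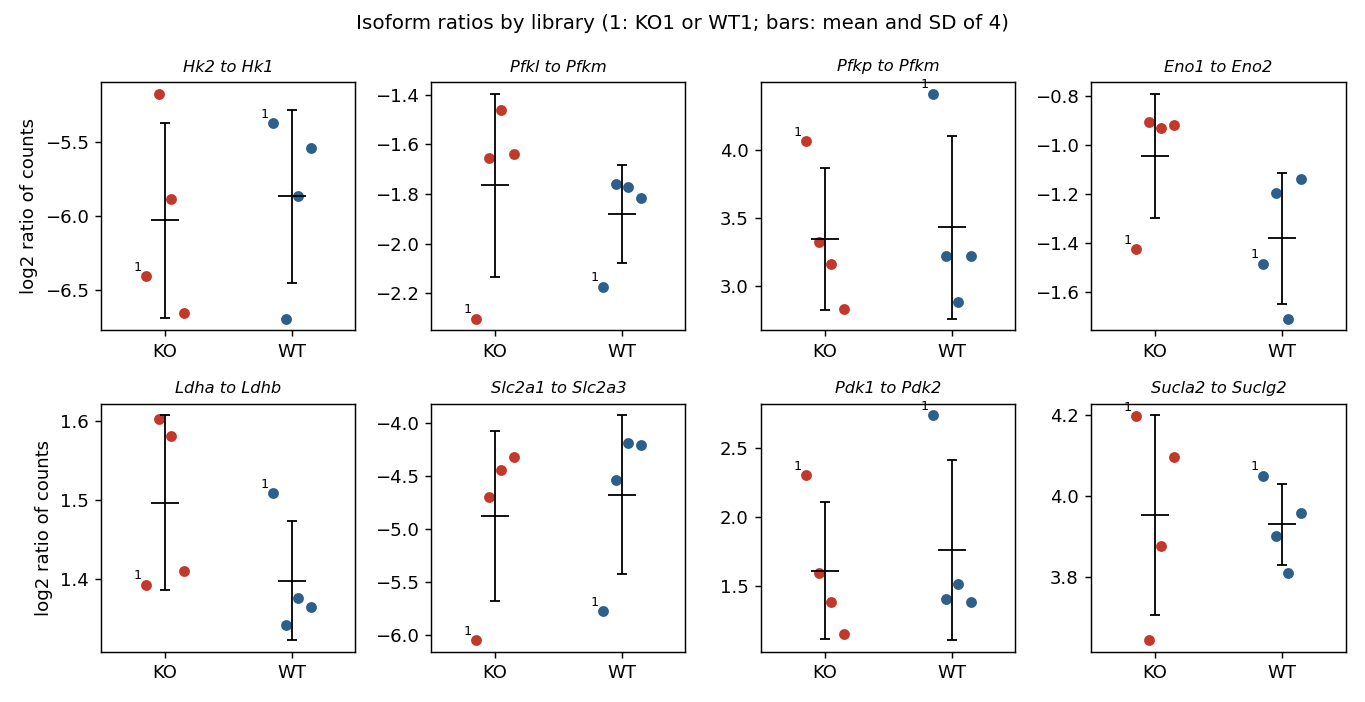
Log2 ratio of counts of 8 gene pairs in each library, KO in red and WT in blue, with the mean and SD of the 4 libraries as black bars and KO1 or WT1 marked 1, each panel on its own axis. The genotypes overlap in every panel, and in the panels of Pfkp to Pfkm, Pdk1 to Pdk2 and Slc2a1 to Slc2a3 the marked libraries lie apart from the other 6.

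A wider list of 53 genes of the same pathways, other isoenzymes, regulators and carriers, had 47 tested genes. Of these, 0 passed the adjusted threshold (edgeR) and 6 had an unadjusted p under 0.05, or 12.8% against 10.6% of all tested genes, 2 of them higher and 4 lower in KO, with a median log2 fold change of 0.025. Eno3, the muscle enolase, had 7.82, 11.97, 12.7 and 11.2 CPM in KO1 to KO4 and 5.44, 9.71, 9.63 and 10.3 CPM in WT1 to WT4, with a log2 fold change of 0.32 (SE 0.11, p 0.014, edgeR adjusted p 0.369). Bpgm, which makes 2,3-bisphosphoglycerate, was the other gene higher in KO, at 0.15 (SE 0.061, p 0.032, edgeR). Slc16a7, the high-affinity pyruvate and lactate carrier MCT2 of neurons, had 192, 144, 128 and 120.4 CPM in KO and 263, 173, 188 and 145 CPM in WT. KO1 and WT1 were its highest libraries, KO1 lay inside the WT range, and WT4 lay level with KO2. Slc16a7 had a log2 fold change of −0.46 (SE 0.11, p 0.0021, edgeR adjusted p 0.256). Pdp2, a phosphatase that switches pyruvate dehydrogenase on, and Pdpr, a regulatory subunit of such phosphatases, were at −0.37 and −0.17 (SE 0.12 and 0.070, p 0.014 and 0.032, edgeR), and Gpd2, the mitochondrial enzyme of the glycerophosphate shuttle, at −0.21 (SE 0.073, p 0.017, edgeR). Pdp2 had 17.3, 17.3, 17.6 and 20.1 CPM in KO and 26.5, 24.0, 21.8 and 18.5 CPM in WT, overlapping only through KO4 and WT4.

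Several glycolytic genes, Slc2a1 and Pdk1 are targets of the hypoxia response, so 16 other genes of that response were read beside them. Of the 14 that were tested, 7 lay above 0 and 7 below, with a median log2 fold change of 0.028 and 0 past the adjusted threshold (edgeR). Ankrd37 was at 0.54 (SE 0.23, p 0.039, edgeR) at a level of 0.816 to 0.978 CPM in the KO libraries and 0.416 to 0.842 CPM in WT. Ero1a, an oxidase that drives the formation of disulphides in the endoplasmic reticulum, was at −0.24 (SE 0.062, p 0.0033, edgeR adjusted p 0.288).

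Markers of other cells were compared with the same model, because glia and neurons differ in these enzymes. All 8 astrocyte markers had log2 fold changes above 0, with a median of 0.16 and 0 at an unadjusted p under 0.05 (0 past the adjusted threshold, edgeR). Aldoc, an aldolase, stands both on this list and on the wider pathway list. Gfap, an intermediate filament of astrocytes, had 73.8, 112, 235 and 7.12 CPM in KO1 to KO4 and 32.9, 12.5, 9.90 and 56.7 CPM in WT1 to WT4, and KO4 was the lowest of all 8 libraries. Of 6 tested microglial markers out of 8 listed, 5 lay above 0, with a median log2 fold change of 1.22 and 0 at an unadjusted p under 0.05 (edgeR). Markers of interneurons summed to 185 to 323 CPM in the KO libraries and 165 to 259 CPM in WT (median log2 fold change 0.29, 4 of 6 above 0), those of the oligodendrocyte lineage to 508 to 611 and 486 to 592 CPM, and those of progenitors to 287 to 387 and 182 to 317 CPM. Endothelial and fibroblast markers were each at most 33.2 CPM in sum in any library, and no marker on any list was at 0 in all libraries. Of the 8 neuronal markers 5 lay above 0 and 3 below, with a median log2 fold change of 0.047. Only Slc17a7, the vesicular glutamate carrier, had an unadjusted p under 0.05 (1 of 8, or 12.5%, against 10.6% of all tested genes). It had 65.4, 93.8, 121 and 112 CPM in KO and 104, 120.5, 139 and 109 CPM in WT, with a log2 fold change of −0.32 (SE 0.11, p 0.019, edgeR adjusted p 0.390). Top2a of the progenitor list (5 of 7 above 0, median 0.081) was at 0.47 (SE 0.19, edgeR p 0.034, adjusted p 0.438). The part of these cell types in the values of the metabolic genes was not tested.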

How the data were processed

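The deposited values are raw counts of uniquely aligned reads per Ensembl gene, made by the authors, with replicates not pooled. According to the study's methods and the submitters' processing notes, reads (bcl2fastq 2.17.1.14) were trimmed with cutadapt 1.10, ribosomal reads were discarded (Bowtie2 2.2.8 is listed), and the rest were aligned to mm10 with STAR 2.5.3a and counted with HTSeq 0.6.1p1 in union mode. Labels and methods differ on read length and layout, which is why runs of 50 and of 100 bases were searched for copies. The library kit keeps strand, but the setting used in counting is not given in the sources used here. Multi-mapped reads were dropped, which lowers genes with copies.

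The members and gene lists were chosen with earlier results of these data known. Of 32726 identifiers, 23260 had a symbol. Genes that passed filterByExpr were scaled by TMM and tested with edgeR 4.0.16 (R 4.3.3) by the robust quasi-likelihood F test for genotype in all 8 libraries, with 1 surrogate variable (svaseq, sva 3.50.0) and Benjamini-Hochberg adjustment over 16272 genes. Alternatives used DESeq2 1.42.0, limma 3.58.1 (voom), other covariates, filters and size factors, each lane, and libraries left out. Fits of a single lane, and fits with a lane, strain or replicate term, held no surrogate variable. The edgeR fit with 1 surrogate variable was also run on simulated counts, and the alternatives were not. These counts were drawn from the fitted means of the libraries without a genotype term and from the dispersion trend. The changed genes were picked only among well-counted genes. For KO against WT with 16073 genes run, 93% of 100 genes changed by a log2 of 1 and 63% of 100 changed by 0.5 passed the adjusted threshold, against 0.0189% of unchanged genes. CPM are counts per 1000000 of the library total, and CPM per kb uses the union of GENCODE vM1 exons. Gene positions are from RefSeq on GRCm38, the build of mm10, whereas printed sequences and their positions, and transcript GC content (known for 83.8% of tested genes), are from NCBIM37 and GENCODE vM1, and the builds were not combined.

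Every library value, fold change, SE and p were given for the 10 members with the smallest p, members of an isoform pair and members whose CPM did not overlap, 22 in all. The other 18 were given by range, with library values also for Pcx and Dld, the extremes of GC content. From the wider pathway lists and the hypoxia list up to 5 genes each with an unadjusted p under 0.05 were named. P-values measure the spread between these libraries, which the labels number as replicates. No 2 libraries agreed within sampling noise (lowest chi-square per degree of freedom 19.7). Equal replicate numbers did not pair the libraries (correlations of deviations 0.78, 0.0075, 0.23 and −0.019 for numbers 1 to 4). Principal components used the 500 most variable genes.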

Additional observations from a re-analysis of the deposited data

Results flagged for a closer look

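In 16 of the 80 groups of 4 values (40 genes in 2 genotypes), 1 library lay far from the other 3 of its genotype by Dixon's criterion, where chance gives about 4 (1 in 20 groups). That chance count takes the groups as independent, which they are not, since they come from the same libraries and share the GC pattern of KO1 and WT1. KO1 accounted for 8 of them. It was the lowest KO library for Aldoa at 68.4 CPM, against at least 146 in KO2 to KO4, and for Tpi1 (43.0), Pdk2 (9.63) and Idh2 (23.2 CPM). It was the highest for Dld at 169 CPM, against 119 to 124, and for Pdha1 (205), Pdhb (75.0) and Sucla2 (114 CPM). WT1 was the highest WT library for Pfkp at 2361 CPM, against 1654 to 1747, and for Sucla2 at 102 CPM. KO4 was the highest KO library for Pgam1 (2.13 CPM) and Idh3a (128 CPM). WT3 was the lowest WT library for Gapdh at 3.94 CPM and the highest for Idh3a at 140.0 CPM, and WT2 was the lowest for Hk2 at 2.62 CPM and for Fh1 at 48.8 CPM.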

How the results depend on the processing

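Over 22 alternatives the median log2 fold change of the 40 genes, 0.051, ran from −0.0029 (lane A) to 0.10. Each value lay within 1 SD of the library medians (0.095) of 0.051. That SD is larger than 0.051, so a median of 0 would also have lain within it, and stability cannot be read from this. Of the 40 genes, 19 kept the sign of their fold change throughout. The number of all genes past the adjusted threshold, 8, was 4 with no surrogate variable, with 2 of them and with a lane term, 1 with a strain term, 3 with the replicate block, 45 with no filter, 2 with at least 10 counts in every library, 168 with DESeq2, 0 in lane A, 99 in lane B, 3 without KO1 and WT1, and 2 with an offset for GC content and no surrogate variable, an alternative added after the GC pattern was seen. Leaving out single libraries gave 3 to 91. The 0 of 40 became 1 with DESeq2. The 7 of 40 with an unadjusted p under 0.05 are set here beside the share of all tested genes in the same fit. They became 9 with 2 surrogate variables (7 higher and 2 lower in KO, 12.1%). They became 1 with no surrogate variable (2.52%) or a lane term (2.94%). There was 1 in the opposite direction with a strain term (Slc16a1, 1.91%) or in lane A alone (Hk2, 0.591%). There were 4 without KO1 and WT1 (5.66%) and 2 with the GC offset (4.19%). With single libraries left out there were 2 to 11 (5.45% to 15.6%).

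Signs of small fold changes turned, here for the members given in full. Pfkm was −0.0037 with no surrogate variable, −0.0027 with a lane term, −0.032 in lane B and −0.036 with the GC offset. Eno2 was 0.075 with 2 surrogate variables, 0.058 with a strain term, 0.18 in lane B and 0.035 without KO1 and WT1. Strain as a term, which compares KO4 with WT2 and WT4 only, gave −0.023 for Pdk1 and −0.16 for Suclg2. Lane A gave −0.11 for Aldoa, −0.028 for Ldha, −0.0036 for Ldhb, −0.12 for Pdk1, −0.085 for Suclg2, and −0.041 for the ratio of Ldha to Ldhb. Lane B gave −0.013 for Hk1, 0.55 for Hk2, −0.0038 for Sucla2, and ratios of 0.59 (Hk2 to Hk1), 0.026 (Pfkp to Pfkm), 0.093 (Pdk1 to Pdk2) and −0.17 (Sucla2 to Suclg2). The GC offset gave −0.015 for Hk1 and −0.015 for Ldhb. Without KO1 and WT1 the ratios were 0.13 (Hk2 to Hk1), 9.4e-05 (Pfkp to Pfkm) and −0.018 (Sucla2 to Suclg2). With single libraries left out, Hk1 ran from −0.018 to 0.049, Hk2 from −0.41 to 0.17, Eno2 from −0.14 to 0.12 and Suclg2 from −0.043 to 0.098. The ratios ran from −0.45 to 0.047 (Hk2 to Hk1), −0.33 to 0.24 (Pfkp to Pfkm), −0.57 to 0.19 (Slc2a1 to Slc2a3), −0.38 to 0.17 (Pdk1 to Pdk2) and −0.058 to 0.13 (Sucla2 to Suclg2). Calls of pairs were not compared across these settings, since in none of them could 1 pair alone pass 0.05 after adjustment over 8 pairs. The causes of these changes were not tested.

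Replicate numbers did not pair the libraries, since 2 of 4 same-numbered pairs had correlations of deviations under 0.1, and not every library correlated best with its own number. With the replicate block, 3 genes of all tested were called. In that fit 5 of the 40 (4 higher and 1 lower in KO) had an unadjusted p under 0.05, beside 7.17% of all tested genes. The differences in ratio were the same by construction. Hk2, Pgam1 and Suclg2 were counted at a few CPM per library. Of these, Pgam1 and Suclg2 have coding copies elsewhere and Hk2 has none. The part of depth and copies in their spread was not tested.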
